A study of Homo sapiens with 35 samples.

Results

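The genes described here are 10 subunits of the SWI/SNF chromatin remodelling complex, SMARCD1, SMARCD2, SMARCD3, SMARCA2, SMARCA4, SMARCB1, SMARCC1, SMARCC2, ARID1A and ARID1B, taken by name from a table of 60665 genes counted in 35 libraries of total RNA. All 10 were among the 19275 genes that passed the filter on low counts. The set was chosen because SMARCD2 was rank 2 among the falls called in cells depleted of ZNF687, after ZNF687 itself, so that fall is given as a description with no test. The log2 fold change was -1.50 for ZNF687, -1.49 for SMARCD2, -1.30 for SORCS1 at rank 3 and -0.93 for BMPER at rank 4.

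SWI/SNF complexes use the energy of ATP to slide or evict nucleosomes and so open DNA at promoters and enhancers. A complex carries 1 ATPase, SMARCA4 or SMARCA2, a scaffold of SMARCC proteins, and 1 of 3 interchangeable SMARCD paralogs. SMARCB1 is a core subunit of the canonical and PBAF forms and is absent from the non-canonical form. ARID1A and ARID1B are alternative subunits of the canonical form of the complex. SMARCD2 is known for its role in granulocyte maturation, SMARCD3 for its role in heart and muscle development, and SMARCD1 is widely expressed.

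The cells were HEK293T, an established line from human embryonic kidney. They were transfected on 2 occasions with siPOOLs, mixtures of small interfering RNAs that all aim at 1 mRNA, at a final 5 nM, and the depletions lasted 72 h. A first set of libraries, numbered 1 and 2, contained 3 controls with a control siPOOL (1, 2a and 2b) and a pair for each of the targets ZNF687, TSPYL2, ZEB1, ZNF609 and ZNF608. A second set, numbered 3 and 4, contained 4 controls (3a, 3b, 4a, 4b) and a pair for each of HDGF, ZNF655 and INTS13, a subunit of the Integrator complex. It also contained cells deprived of glucose for 24 h, with 4 controls and a pair each for INTS13 and HDGF. The last set contained 2 controls labelled for ZMYND8 and 2 ZMYND8-depleted libraries. No label names the control of ZNF655, and the second-set controls were used for it. All libraries came from 1 cell line, the depletions were partial, and fewer cells of a type and less RNA per cell cannot be told apart in bulk RNA.

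Total counts were 16.8 to 50.8 M per library, and the members had between 306 counts (SMARCD3) and 22452 counts (SMARCC1) in a library. Depleted and control libraries did not overlap for any siPOOL target, whose remaining level ran from 8.36% of control for HDGF to 56.1% for ZNF608, and ZNF687 was left at 35.3%. Of the markers of the line, VIM was at 316 to 699 CPM (counts per M of TMM-scaled library size) and KRT18 at 37.1 to 95.1 CPM, and all 7 were detected in every library. CD3E was at 0 in 35 of 35 libraries, COL1A2 in 34 and PTPRC in 31. The summed levels of other lineages were low over the 35 libraries, up to 0.168 CPM for endothelium, up to 0.714 for hepatocytes and 1.30 to 8.70 for fibroblasts (mostly COL1A1).

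The 6 libraries numbered 1 stood apart from the 7 numbered 2 in the first set. Genes of ribosomal proteins took 9.93% to 15.9% of the counts in the former and 7.12% to 9.69% in the latter, against 5.20% to 8.02% in the other 2 sets. SMARCD1, SMARCD2, SMARCA2, SMARCA4, SMARCC1 and SMARCC2 were lower in number 1 than in number 2 in 6 of 6 groups, with median log2 differences from -0.18 (SMARCD2) to -0.49 (SMARCA4). ARID1A (median -0.58) and ARID1B (-0.33) were lower in 5 of 6 groups, SMARCB1 in 2 of 6 and SMARCD3 in 0 of 6. The part of the ribosomal protein share in these differences was not tested. Results of the first set are therefore given within each number as well, and with the numbers as a block where that changes a call.

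**Figure D1:**
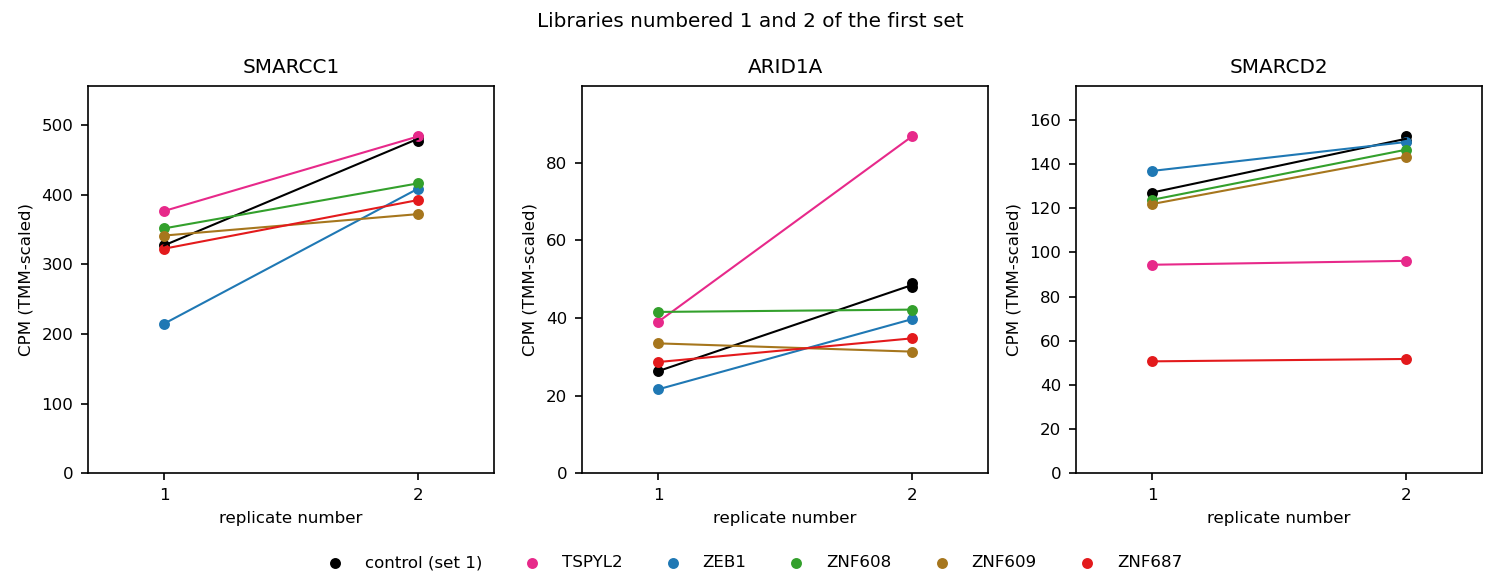
Level of SMARCC1, ARID1A and SMARCD2 (TMM-scaled CPM, linear axis from 0) in the first set by replicate number, with 1 colour per group and lines joining the means of a group. SMARCC1 and SMARCD2 are lower in number 1 in 6 of 6 groups, while the ZNF687-depleted libraries (red) lie lowest for SMARCD2 under both numbers, at 50.6 and 51.7 CPM.

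SMARCD1, SMARCD2 and SMARCD3 are close paralogs, so it matters whether a read of 100 bases can be told apart between them. The stretch shown is the one in which the 3 coding sequences are most alike together, read on hg38 from GENCODE 29 transcripts, with capitals in SMARCD1 and SMARCD3 for bases that differ from SMARCD2. It spans exons 6 and 7 in each gene, at chr17:63834566-63834794 on the minus strand (SMARCD2), chr12:50088548-50089893 on the plus strand (SMARCD1) and chr7:151241969-151242226 on the minus strand (SMARCD3).
SMARCD2: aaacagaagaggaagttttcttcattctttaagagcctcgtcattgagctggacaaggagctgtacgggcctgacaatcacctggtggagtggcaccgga
SMARCD1: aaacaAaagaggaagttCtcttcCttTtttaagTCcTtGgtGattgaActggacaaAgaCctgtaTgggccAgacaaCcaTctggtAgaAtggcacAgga
SMARCD3: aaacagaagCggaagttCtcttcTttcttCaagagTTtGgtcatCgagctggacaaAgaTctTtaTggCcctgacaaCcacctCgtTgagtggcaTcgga
Over these 100 bases SMARCD1 differed from SMARCD2 at 19 positions and SMARCD3 at 17. In any window of 100 coding bases the fewest differences were 19 between SMARCD2 and SMARCD1, 16 between SMARCD2 and SMARCD3 and 14 between SMARCD1 and SMARCD3. No window of 100 bases of the SMARCD1 or SMARCD2 transcript was found in a GENCODE 29 transcript of another gene, against 0.106% of the windows of SMARCD3, 1.74% of SMARCC2 (shared with MYL6), 5.12% of ARID1B (shared with AL355297.4) and 0% for the other 5. SMARCD3 overlaps CHPF2, SMARCC2 overlaps MYL6 and SMARCB1 overlaps DERL3 on the opposite strand. The strand setting of the counting is not given in the sources used here, so values of SMARCD3, SMARCC2 and SMARCB1 are uncertain to that extent.

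SMARCD2 was the SMARCD paralog with the highest level per length in control cells. On the scale of CPM per kb of exon, SMARCD2 was at 39.1 ± 3.85 (SD, n = 3) in the first-set controls, where SMARCD1 was at 20.03 and SMARCD3 at 4.95. SMARCC1 led all 10 members at 56.3 CPM per kb, and SMARCA4 was at 11.06 and SMARCA2 at 2.99. In the second-set controls the order of the first 4 was the same, with SMARCC1 at 72.9, SMARCD2 at 33.9, SMARCD1 at 26.5 and SMARCA4 at 15.4 CPM per kb. The place of SMARCB1 depended on the length used. It was rank 6 of 10 in the first set and rank 5 in the second by the deposited exon length of 16.5 kb, and rank 2 and rank 1 by the 1.72 kb of the transcript with the longest coding part, at 66.0 and 94.0 CPM per kb. By that transcript length SMARCC1 and SMARCD2 stayed among the first 3 in both sets. Among the low members, ARID1A, ARID1B, SMARCA2 and SMARCD3, the order changed with the length and the set.

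**Figure D2:**
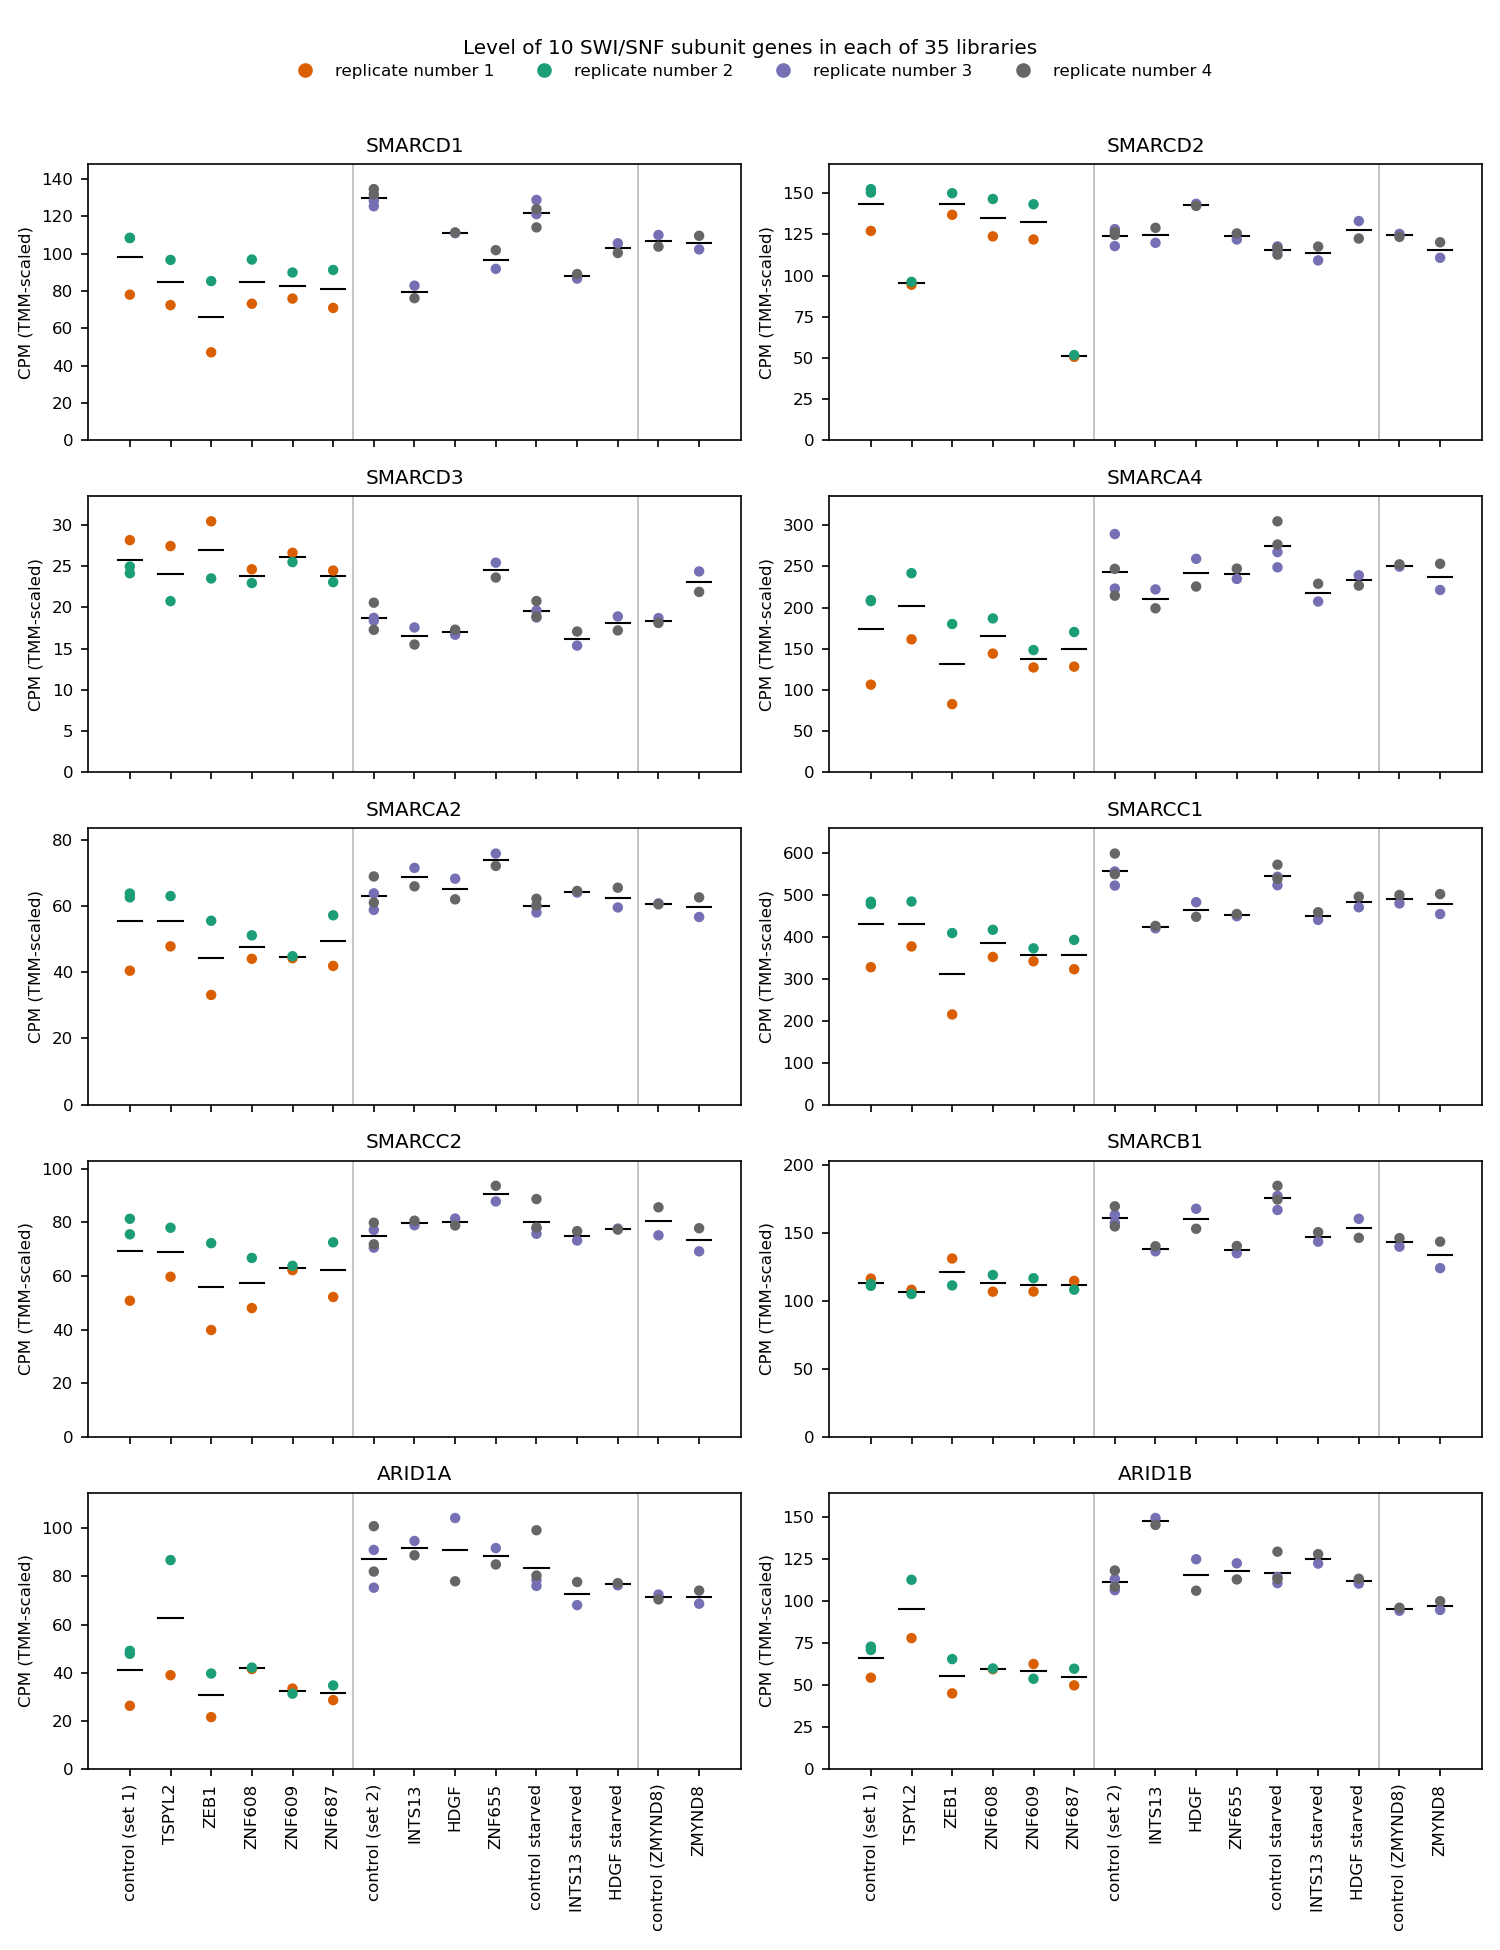
Level of each of the 10 genes (TMM-scaled CPM, linear axes from 0) in every library, grouped by depletion and coloured by replicate number, with bars for group means and grey lines between the 3 sets. SMARCD2 stands lowest in the ZNF687-depleted libraries (50.6 and 51.7 CPM) and next lowest in the TSPYL2-depleted ones (94.4 and 96.2), and SMARCD1 is low in INTS13-depleted cells (82.8 and 76.1) against its controls.

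SMARCD2 (ENSG00000108604, hg38 chromosome 17, 63832081 to 63843065, minus strand) was at 127, 152.5 and 150 CPM in the 3 first-set controls and at 50.6 and 51.7 CPM in the ZNF687-depleted libraries. The depleted libraries lay far below all controls. The log2 fold change was -1.49 ± 0.09 (SE), which left 35.7% of control, close to the 35.3% left of the siPOOL target ZNF687. Within number 1 SMARCD2 was at 39.8% of control, and within number 2 at 34.1%. Of all genes 0.254% were called in this comparison (Benjamini-Hochberg adjusted p under 0.05 from edgeR), and SMARCD2 was the 1 member among them, which restates the choice of the set.

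The other 9 members did not pass in ZNF687 depletion. Their log2 fold changes ran from -0.38 ± 0.25 for ARID1A to -0.02 ± 0.08 for SMARCB1, and all 9 were below 0. Within number 2 the log2 ratios of ARID1A (-0.48), SMARCA4 (-0.29) and SMARCC1 (-0.29) were below 0, whereas within number 1 they were 0.12, 0.27 and -0.02. The paralogs SMARCD1 (-0.28 ± 0.17) and SMARCD3 (-0.11 ± 0.11) were not called either, so no rise of a paralog was detected beside the lower SMARCD2. The genes next to SMARCD2 on chromosome 17 were also not called. PSMC5, a proteasome ATPase gene 55 bases away, had a log2 fold change of 0.09 ± 0.13 (adjusted p = 0.847). On the same side, FTSJ3 had -0.00 ± 0.17 (adjusted p = 0.999) and DDX42 -0.25 ± 0.14 (adjusted p = 0.592). On the other side, TCAM1P, 6227 bases away, had -0.23 ± 0.35 (adjusted p = 0.859).

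The make-up of the SMARCD group differed accordingly. On the scale of CPM per kb of exon, SMARCD2 held 61.1 ± 0.819% (SD, n = 3) of the summed level of the 3 paralogs in first-set controls and 40.0 ± 2.76% (n = 2) in ZNF687-depleted cells, where SMARCD1 held 47.0 ± 4.45%. In ZNF687-depleted cells SMARCD1 had a larger share than SMARCD2 in both libraries, which was the case in no other group. The summed level itself was 64.1 ± 7.02 in controls and 35.1 ± 2.95 in depleted cells. SMARCD3 held 7.84 ± 1.59% in controls and 13.1 ± 1.70% in depleted cells, while its own level was 25.7 ± 2.12 and 23.8 ± 0.986 CPM. With transcript lengths the SMARCD2 share was 56.8% to 57.4% in controls and 34.3% to 37.1% in depleted libraries. These shares follow from the change that chose the set and are given without a test.

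**Figure D3:**
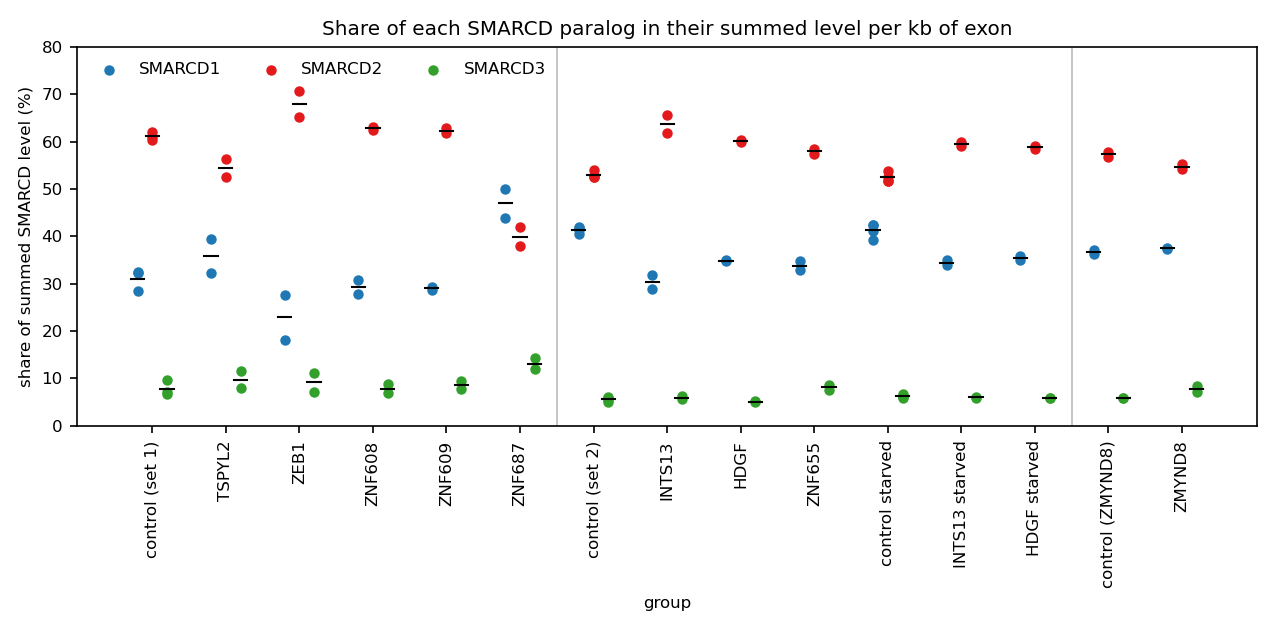
Share (%) of SMARCD1, SMARCD2 and SMARCD3 in their summed level per kb of exon, 1 point per library and bars for group means. SMARCD2 (red) holds 61.1% on average in first-set controls and 40.0% in ZNF687-depleted cells, the 1 group in which SMARCD1 (blue) lies above it.

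SMARCD2 also fell after depletion of TSPYL2, a nucleosome assembly family protein, to 94.4 and 96.2 CPM in its 2 libraries against 127, 152.5 and 150 in the same 3 controls that the ZNF687 comparison used. The groups did not overlap. The log2 fold change was -0.59 ± 0.09 (adjusted p = 0.00141), with 74.3% of control within number 1 and 63.5% within number 2. The call was lost when first-set libraries were fitted alone without the block (-0.58, adjusted p = 0.607), a fit in which 1 gene of the whole table was called, and was kept there with the replicate number as a block (-0.54 ± 0.10, adjusted p = 0.042). In this comparison 2 of the 10 members were called, and 2.22% of all genes. ZNF687 itself had a log2 fold change of -0.06 in TSPYL2 depletion.

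The other called member in TSPYL2 depletion was ARID1B, which rose. It was at 77.8 and 112 CPM in the 2 depleted libraries and at 54.3, 70.8 and 72.8 CPM in the controls, a log2 fold change of 0.53 ± 0.14 (adjusted p = 0.0456). Its log2 ratio was 0.52 within number 1 and 0.65 within number 2. Leaving out TSPYL2 library 2 gave 0.23 (adjusted p = 0.809), leaving out control 1 gave 0.40 (adjusted p = 0.156) and leaving out control 2a gave 0.58 (adjusted p = 0.0667). ARID1A was at 39.0 and 86.7 CPM against 26.3, 47.9 and 49.0, with 0.57 within number 1 and 0.84 within number 2. It was not called without the block (0.61 ± 0.25, adjusted p = 0.197) and was called with it (0.66 ± 0.18, adjusted p = 0.0121). In the blocked fit of first-set libraries only, neither ARID1A (0.68 ± 0.21, adjusted p = 0.106) nor ARID1B (0.58 ± 0.14, adjusted p = 0.0674) was called. Of the other 17 ATPases of remodeller families outside SWI/SNF, 1 rose and 0 fell. This was EP400, with a log2 fold change of 0.86 ± 0.22 (adjusted p = 0.0368), at 34.7 and 75.6 CPM against 23.4, 32.0 and 35.6, so its libraries overlapped. None of the 19 other SWI/SNF subunits was called by edgeR in this comparison. An unadjusted p under 0.05 was reached by 4 of them, against 3238 of all 19275 genes.

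ZEB1, ZNF608 and ZNF609 depletion left SMARCD2 near its control level. SMARCD2 was at 137 and 150 CPM after ZEB1 depletion (log2 fold change 0.00 ± 0.09), at 124 and 146 after ZNF608 depletion (-0.08) and at 122 and 143 after ZNF609 depletion (-0.11). The order of first-set groups by mean SMARCD2 level was ZEB1 (143.5 CPM), control (143), ZNF608 (135), ZNF609 (133), TSPYL2 (95.3) and ZNF687 (51.2). The first 4 overlapped each other, and TSPYL2 and ZNF687 were each separate from every other group.

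In ZEB1 depletion, edgeR called 0 of the 10 members, against 3.77% of all genes. There were 2 members at an unadjusted p under 0.05, against 4255 of all 19275 genes. DESeq2 called 1 member, and its share of all genes called is not given here. SMARCD1 was at 47.1 and 85.2 CPM against 77.95, 108 and 108 in the controls (-0.57 ± 0.17, adjusted p = 0.0659), and the libraries overlapped. Within number 1 its log2 ratio was -0.73 and within number 2 it was -0.35. With the replicate number as a block, SMARCD1 (-0.52 ± 0.09, adjusted p = 0.000333) and SMARCC1 (-0.42 ± 0.10, adjusted p = 0.00813) were the members called. The share of all genes called with this block is not given here. SMARCD1 kept its call in the blocked fit of first-set libraries only (-0.52 ± 0.12, adjusted p = 0.0382). With all number 1 libraries left out SMARCD1 had -0.34 ± 0.08, from 1 ZEB1-depleted library that was assumed to vary like the other groups. ZEB1 library 1 was the lowest of all 35 libraries for SMARCD1, SMARCA2, SMARCA4, SMARCC1, SMARCC2, ARID1A and ARID1B and the highest for SMARCD3, and its ribosomal protein share was the highest of the series at 15.9%. Without control 1, 4 members were called lower, and the share of all genes called in that fit is not given here. Leaving out ZEB1 library 2 also left 1 depleted library, so no count is given for that fit.

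ZNF608 depletion called 0 members with edgeR, against 2.76% of all genes, and ZNF609 depletion 0, against 0.571%. DESeq2 called 0 members in either. Neither had a member at an unadjusted p under 0.05, against 2785 (ZNF608) and 1891 (ZNF609) of all 19275 genes. In ZNF609 depletion 2 of the 10 members were lower in both numbers and 0 were higher in both, with 1 depleted library in each number. Within number 1 the log2 ratios of ARID1A (0.35), SMARCA4 (0.26) and SMARCA2 (0.13) were above 0, and within number 2 they were -0.63, -0.49 and -0.50. Without the number 1 libraries, 1 depleted library was left, which was assumed to vary like the other groups. That fit gave log2 fold changes in ZNF609 depletion of -0.26 ± 0.08 for SMARCD1 and -0.62 ± 0.15 for ARID1A. In ZNF608 depletion the same fit, also with 1 depleted library, gave -0.30 ± 0.09 for SMARCA2.

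SMARCD1 fell after depletion of INTS13. SMARCD1 (ENSG00000066117, chromosome 12, 50085200 to 50100707) was at 82.8 and 76.1 CPM in the depleted libraries and at 125, 128, 134.5 and 132 CPM in the controls. The groups did not overlap, and the log2 fold change was -0.71 ± 0.17 (adjusted p = 0.00521). It was called without each library except INTS13 library 4, without which it was -0.67 (adjusted p = 0.0842). SMARCD2 was at 120 and 129 CPM against 118, 128, 126 and 125 (0.00), within the range of its controls but for 1 library. SMARCD1 thus held 30.4 ± 2.12% (SD, n = 2) of the summed SMARCD level per kb in INTS13-depleted cells and 41.4 ± 0.695% (n = 4) in controls.

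ARID1B rose after INTS13 depletion, to 149 and 145 CPM against 113, 106, 108 and 118 in the controls (0.40 ± 0.13, adjusted p = 0.0444), and lost its call when any 1 of the 6 libraries was left out (0.36 to 0.43). The scaffold gene SMARCC1 was at 420 and 426 CPM against 522, 555, 549 and 598, all below the controls (-0.40 ± 0.17, adjusted p = 0.126), and SMARCB1 was at 136 and 140 against 158, 163, 155 and 170 (-0.22 ± 0.08, adjusted p = 0.0681). With second-set libraries alone, both were called, SMARCC1 with adjusted p = 1.05e-05 and SMARCB1 with adjusted p = 0.00503. The members called numbered 2 of 10, against 12.8% of all genes in the same fit of all libraries. With second-set libraries alone 4 were called, and the share of all genes in that fit is not given here.

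Of 19 other SWI/SNF subunits, 1 rose and 3 fell after INTS13 depletion, where 12.8% of all genes were called. DPF3, a subunit of muscle and neural forms of the complex, rose from 5.23, 4.16, 4.99 and 4.92 CPM to 8.91 and 6.57 (0.68 ± 0.18, adjusted p = 0.0114). PBRM1 (-0.47 ± 0.14, adjusted p = 0.03) and BRD7 (-0.35 ± 0.06, adjusted p = 0.000496), both of the PBAF form, fell, as did BRD9 of the non-canonical form (-0.27 ± 0.07, adjusted p = 0.00691). BRD7 was at 110 and 112 CPM against 133 to 148. Of the 17 other remodeller ATPases, CHD3 rose, to 178 and 177 CPM against 120, 116, 108 and 128 (0.59 ± 0.19, adjusted p = 0.0424), and 0 fell. The median log2 fold change was -0.09 over the 10 members, -0.07 over the 19 other subunits and 0.01 over all genes.

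Depletion of ZNF655, compared with the same 4 controls as INTS13, called SMARCD3 among the SMARCD genes. SMARCD3 rose to 25.4 and 23.6 CPM against 18.7, 18.4, 17.3 and 20.6 (0.39 ± 0.11, adjusted p = 0.0188), with no overlap. The call was lost without ZNF655 library 3 (0.30, adjusted p = 0.297), ZNF655 library 4 (0.40, adjusted p = 0.0974) or control 4a (0.35, adjusted p = 0.0574), and kept with the controls labelled for ZMYND8 (0.41, adjusted p = 0.0415). SMARCD1 was at 91.8 and 102 CPM, below all controls (-0.42 ± 0.16, adjusted p = 0.0998), and SMARCD2 at 122 and 126 (-0.01 ± 0.08). The 1 member called compares with 11.5% of all genes in the same fit of all libraries. The share of all genes called with second-set libraries alone is not given here. With second-set libraries alone 6 members were called: SMARCD3, SMARCA2 (0.23 ± 0.06) and SMARCC2 (0.28 ± 0.06) higher, and SMARCD1 (-0.43 ± 0.06), SMARCC1 (-0.30 ± 0.06) and SMARCB1 (-0.23 ± 0.06) lower.

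Of the 19 other subunits, 1 rose and 3 fell after ZNF655 depletion, where 11.5% of all genes were called. SS18, a subunit of canonical and non-canonical complexes, fell to 98.9 and 97.1 CPM against 148, 157, 155 and 150 (-0.64 ± 0.07, adjusted p = 4.8e-07). PHF10, of the PBAF form, fell to 106 and 99.4 CPM (-0.45 ± 0.10, adjusted p = 0.00358), and BRD7 to 111 and 111.5 (-0.35 ± 0.06, adjusted p = 0.000572). ACTL6B, the neuronal actin-like subunit, was called higher with 11 and 15 counts against 0, 2, 0 and 0 in the controls, too few for a fold. It was also called in ZNF608 depletion, with 42 and 27 counts against 3, 0 and 7, the 1 call among 19 other subunits there. The ISWI ATPases SMARCA1 (-0.55 ± 0.08, adjusted p = 6.09e-05) and SMARCA5 (-0.40 ± 0.11, adjusted p = 0.0144) fell as well.

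HDGF depletion called 0 members with edgeR, against 4.49% of all genes, and 0 with DESeq2. It had 1 member at an unadjusted p under 0.05, against 3111 of all 19275 genes. That member was SMARCD2, at 144 and 142 CPM against 118, 128, 126 and 125, above all controls (0.20 ± 0.08, adjusted p = 0.199). With second-set libraries alone 3 members were called, in a fit whose share of all genes called is not given here. SMARCD2 was higher (0.20 ± 0.05, adjusted p = 0.0142), and SMARCD1 (-0.23 ± 0.06, adjusted p = 0.00854) and SMARCC1 (-0.26 ± 0.06, adjusted p = 0.00201) were lower. None of the other 19 subunits was called by edgeR (0 at an unadjusted p under 0.05), and SMARCA1 was the 1 remodeller ATPase that fell (-0.63 ± 0.08, adjusted p = 1.83e-05).

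ZMYND8 depletion called 0 members with edgeR, against 0.747% of all genes, and 0 with DESeq2. It had 1 member at an unadjusted p under 0.05, against 1855 of all 19275 genes. SMARCD3 was at 24.4 and 21.9 CPM against 18.7 and 18.1 in the controls labelled for ZMYND8, without overlap (0.33 ± 0.13, adjusted p = 0.324), and was called with the 4 libraries of that set alone (0.31 ± 0.09, adjusted p = 0.0413). SMARCD2 was at 111 and 120 CPM against 125 and 124 (-0.11). PHF10 fell, to 66.6 and 62.1 CPM against 94.8 and 101 (-0.61 ± 0.11, adjusted p = 0.00638), 1 of 19 other subunits.

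Glucose starvation called none of the 10 members. In control cells the log2 fold changes ran from -0.10 ± 0.07 (SMARCD2) to 0.17 ± 0.19 (SMARCA4). There were 0 called by edgeR, although it called 16.8% of all genes, and 0 by DESeq2. There were also 0 at an unadjusted p under 0.05, against 5542 of all 19275 genes. SMARCD2 was at 118, 115, 113 and 117 CPM in the starved controls. Starvation of INTS13-depleted cells gave 0, 0 and 0 by the same counts, and so did starvation of HDGF-depleted cells. Of all genes edgeR called 1.32% in the former and 3.54% in the latter, with 2408 and 3083 at an unadjusted p under 0.05. Of the other subunits in starved control cells, BICRAL rose (0.43 ± 0.12, adjusted p = 0.0136), ACTL6B was called higher with 5 to 12 counts a library against 0 to 2, and SS18 fell (-0.21 ± 0.05, adjusted p = 0.00986). Of the other ATPases, CHD1 (-0.40 ± 0.13), SMARCA1 (-0.27 ± 0.07) and SMARCA5 (-0.28 ± 0.09) fell.

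Within starved cells, INTS13 depletion called 0 members with edgeR, against 3.86% of all genes. There were 3 members at an unadjusted p under 0.05, against 3061 of all 19275 genes. DESeq2 called 1 member, SMARCB1, and its share of all genes called is not given here. SMARCD1 was at 86.6 and 89.0 CPM against 129, 121, 124 and 114 in the starved controls, with no overlap (-0.47 ± 0.17, adjusted p = 0.12). With second-set libraries alone 5 members were called lower, SMARCD1 among them (-0.46 ± 0.06, adjusted p = 1.07e-05). The share of all genes called in starved cells with second-set libraries alone is not given here for either depletion. HDGF depletion in starved cells called 0 members with edgeR, against 0.659% of all genes, and 0 with DESeq2. It had 1 member at an unadjusted p under 0.05, against 2126 of all 19275 genes. With second-set libraries alone it called 2 members, SMARCD1 (-0.24 ± 0.06) and SMARCB1 (-0.19 ± 0.06). The effect of INTS13 depletion on SMARCD1 was not shown to differ between fed and starved cells (interaction 0.24 ± 0.23, edgeR adjusted p = 1). The interactions called 0 members with edgeR for either depletion, against 0.0156% of all genes for INTS13 and 0% for HDGF, and 0 with DESeq2. Neither had a member at an unadjusted p under 0.05, against 1103 (INTS13) and 909 (HDGF) of all 19275 genes.

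**Figure D4:**
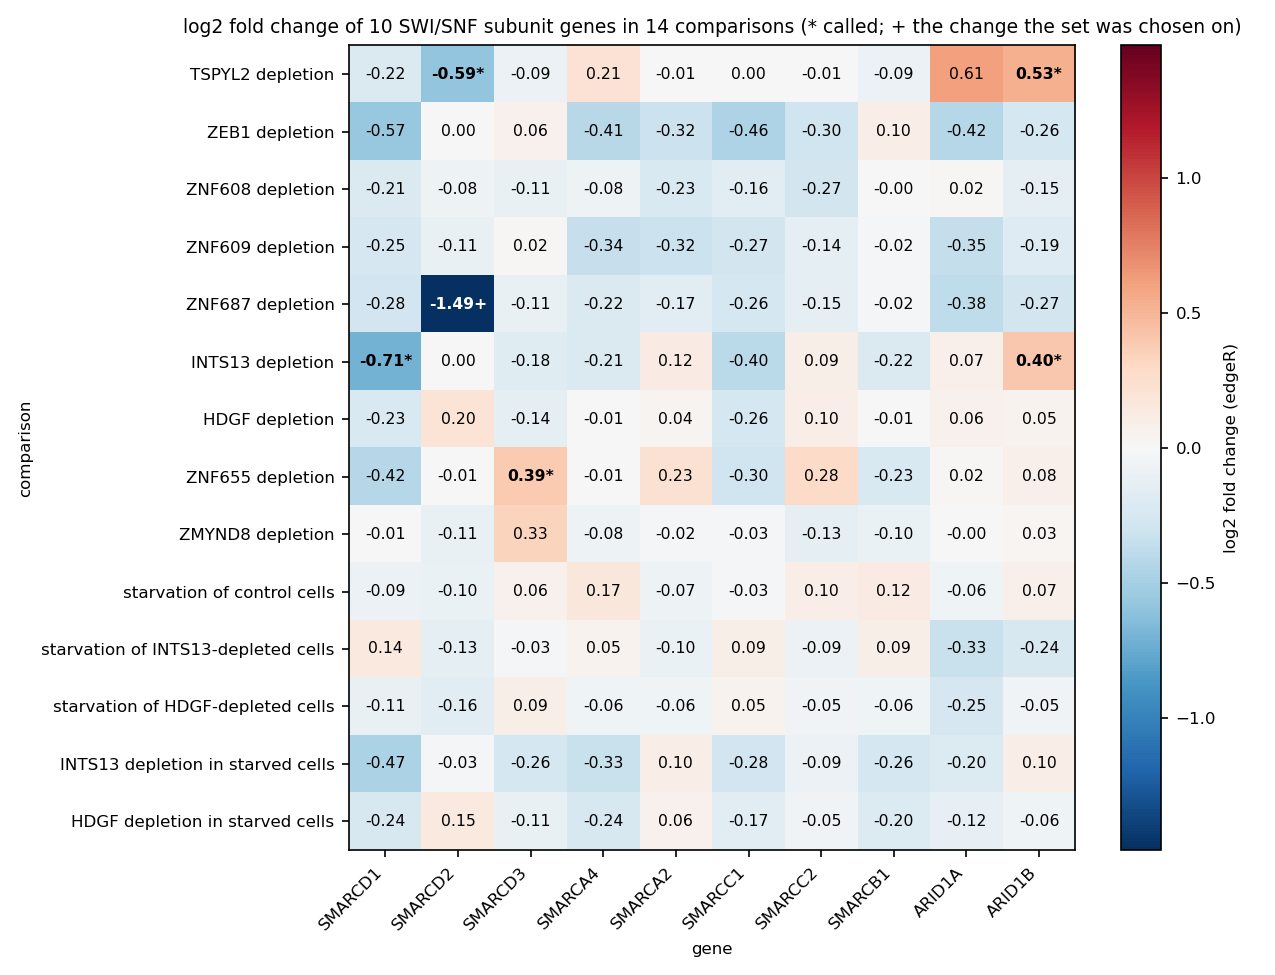
Log2 fold change (edgeR, red higher and blue lower) of the 10 genes in the 14 comparisons, with * for an adjusted p under 0.05 and + for the change the set was chosen on. The values of SMARCD2 in ZNF687 (-1.49) and TSPYL2 (-0.59) depletion and of SMARCD1 in INTS13 depletion (-0.71) are the lowest of the marked cells, and the 5 rows with starvation hold no marked cell.

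Over the 35 libraries, as log2 CPM minus the mean of the unstarved controls of the same set, SMARCD1 and SMARCC1 had a Pearson r of 0.91, SMARCA2 and SMARCC2 of 0.90 and SMARCA4 and SMARCC1 of 0.84. SMARCD2 had an r between 0.04 (SMARCB1) and 0.23 (SMARCC2) with the other 9, and between -0.35 (ARID1B) and 0.25 (SMARCC2) without the 2 ZNF687-depleted libraries, on whose SMARCD2 level the set was chosen. These values describe libraries that share controls, replicate numbers and RNA composition. The 5 genes whose pattern was most like that of SMARCD2 among 11514 genes were ZNF687 (r = 0.84), EPB41L3 (0.81), AKT1 (0.77), FBXO38 (0.71) and ZNF175 (0.71). Without the 2 ZNF687-depleted libraries r was 0.17 for ZNF687, 0.54 for EPB41L3, 0.42 for AKT1, 0.51 for FBXO38 and 0.02 for ZNF175. The ranking itself included those 2 libraries and was not repeated without them.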

How the data were processed

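The authors deposited raw counts per gene in 1 table whose columns are the 35 libraries, named as made before removal of duplicate reads. Reads were single-end from a stranded kit, per the labels' protocols. FastQC, cutadapt, STAR and hg38 are named in the submitters' processing notes. Versions, counter, strand setting and annotation are not given in the sources used here. Members and the lists of other genes were chosen with earlier results of these data known. Libraries were named by their descriptions, since titles number the first-set controls differently.

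The summed level of the leukocyte markers is not reported here. Low counts were removed with filterByExpr, leaving 19275 genes, and TMM factors were computed. In R 4.3.3, edgeR 4.0.16 fitted the means of 15 groups by quasi-likelihood, and 16 two-sided contrasts were adjusted by Benjamini-Hochberg over all genes tested and called at an adjusted p under 0.05. DESeq2 1.42.0 was an alternative. The fit was also run on simulated counts with the same spread for every gene and no difference between numbers 1 and 2. That run therefore does not cover the difference between the numbers. Named genes were the members, the targets, called genes of the 2 other lists (at most 4 a comparison) and the 5 genes most like SMARCD2 in pattern among those whose log2 CPM averaged 2 or more. Where SMARCD2 was among the 8 largest changes, its value from the fit is given as a description and its p is not printed. A log2 CPM used a prior count of 2.

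In the first set, deviations of number 1 from number 2 correlated above 0.1 in 15 of 15 pairs of groups (median r 0.742), so the numbers pair those libraries. In the second set 6 of 21 pairs did. Controls 2a and 2b differed beyond sampling noise (chi-square 4.43 per degree of freedom) and were counted separately. No label says that replicates were grown separately, and the p-values therefore reflect only the spread between these libraries, which may be technical.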

Additional observations from a re-analysis of the deposited data

How the results depend on the processing

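The counts of members called moved under several alternatives, while the 5 called changes other than the one the set was chosen on kept their direction in every alternative run. For most of these alternatives the share of all genes called is not given here, so their counts cannot be set against it. With the libraries of its own set alone, 0 members were called in TSPYL2 depletion, 4 in INTS13, 3 in HDGF, 6 in ZNF655 and 1 in ZMYND8 depletion, and 5 for INTS13 and 2 for HDGF depletion in starved cells. The replicate block gave 2 in ZEB1, 4 in INTS13, 1 in HDGF and 5 in ZNF655 depletion and 2 for INTS13 depletion in starved cells, and 3 against 2 in TSPYL2 depletion. The numbers do not pair the second set. The block with the own set alone, added after seeing the data, gave 1 in TSPYL2, ZEB1 and ZMYND8 depletion, 4 in INTS13, 3 in HDGF and 6 in ZNF655 depletion, and 4 and 1 for INTS13 and HDGF depletion in starved cells. The fit without all number 1 libraries, also added after seeing the data, left 1 library per first-set depletion, and its counts are not given here. With a and b libraries summed, TSPYL2 and INTS13 depletion gave 1 and ZNF655 depletion 0. With no filter, ZEB1 depletion gave 4 and INTS13 depletion in starved cells 1. DESeq2 gave 1 for these 2 comparisons and 3 for ZNF655 depletion, where DESeq2 size factors in edgeR gave 2. Leaving out 1 library at a time moved the counts in TSPYL2, ZEB1, INTS13 and ZNF655 depletion, and no other count moved. Some of these fits left 1 depleted library, so their counts are not given here. SMARCD2 in TSPYL2 depletion kept its call in 12 of 13 alternatives (-0.67 to -0.54), SMARCD1 in INTS13 depletion in 12 of 13, SMARCD3 in ZNF655 depletion in 9 of 14, ARID1B in TSPYL2 depletion in 7 of 13 and ARID1B in INTS13 depletion in 6 of 13. SMARCD2 in ZNF687 depletion ran from -1.56 to -1.44. The cause of these differences was not tested. Most groups had 2 libraries, which limits what could be called. The SE also differed between genes with the same libraries, at 0.17 for SMARCD1 and 0.09 for SMARCD2 in ZNF687 depletion. SMARCD1 differed more between numbers 1 and 2 of the first set (median log2 difference -0.41, against -0.18 for SMARCD2). The part of that difference in the SE was not tested.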

Other observations

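Control levels of several members differed between the sets of libraries, which were not compared by a test because set and any handling that came with it cannot be told apart. ARID1A was at 41.1 ± 12.8 CPM (SD, n = 3) in the first-set controls and at 87.3 ± 11.1 (n = 4) in the second-set controls, and ARID1B at 66.0 ± 10.1 and 111 ± 5.20. SMARCB1 was at 113 ± 2.76 and 161 ± 6.60 CPM. SMARCD3 went the other way, at 25.7 ± 2.12 and 18.7 ± 1.37 CPM. SMARCD2 was at 143 ± 14.1 and 124 ± 4.49 CPM. Over the whole series, depleted libraries included, the highest library for ARID1A (HDGF library 3) was 4.83 times the lowest (ZEB1 library 1). Without the number 1 libraries this ratio was 3.33. For SMARCB1 it was 1.76 both with and without them.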
